A study of Mus musculus with 18 samples.

Results

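The brush border peptidases considered here were 7 genes, Enpep, Anpep, Dpp4, Mep1a, Mep1b, Ace and Mme, taken by symbol from a table of 24047 genes. The set was built around Enpep, which was selected on its measured log2 fold change between CONV-Ern2-/- and CONV-WT in these libraries, where it was among the genes with the largest rise. That contrast is therefore described by its values, and calls in it support nothing about the members. All 7 had reads, in 16 or more of 18 libraries. RNA-Seq was performed on colon crypt epithelial cells of C57BL/6 mice, released with EDTA and kept as intact crypts, in 6 groups of 3 libraries. GF-WT and GF-Ern2-/- mice were germ free. COLONIZED-WT and COLONIZED-Ern2-/- mice had been germ free and were gavaged with a cecal microbiota, from CONV-WT donors per the study. They were examined 14 days later. CONV-WT and CONV-Ern2-/- mice were raised conventionally (SPF). Ern2-/- denotes deletion of both copies of Ern2, which encodes the epithelial ER stress sensor ERN2 (IRE1β), and WT mice carried no deletion. Ages are not given in the sources used here. The labels number the samples of a group without naming the animal, and the study describes its RNA-Seq values as those of individual mice.

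Absorptive cells of the gut carry a brush border of microvilli, and membrane-bound peptidases on its surface trim peptides so that amino acids, dipeptides and tripeptides can be taken up. Enzymes of this group also cut hormones and mucus components. They are best known from the small intestine, and some are made by surface colonocytes as well. Enpep encodes aminopeptidase A, which removes acidic residues from the N terminus and converts angiotensin II to angiotensin III. Anpep encodes aminopeptidase N (CD13), which removes mainly neutral residues, and Dpp4 encodes dipeptidyl peptidase 4 (CD26), which releases dipeptides that end in proline or alanine and inactivates GLP-1. Mep1a and Mep1b encode the meprin subunits α and β, metallopeptidases that cut within chains, and meprin β is known to cleave the mucin MUC2. Ace encodes angiotensin-converting enzyme, which takes dipeptides from the C terminus, and Mme encodes neprilysin, an endopeptidase of small peptides.

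Library totals ran from 5865619 to 23154481 counts, with the lowest totals in the CONV groups. Ern2 was counted in every library labelled Ern2-/- (386 to 3336 normalized counts, against 1909 to 3100 in WT), so genotype differences below are differences between labels. By Xist and Y-linked genes, all 3 GF-WT libraries were female, all 3 CONV-Ern2-/- libraries were male, and each other group held both sexes. Epithelial markers summed to between 139900 and 231600 normalized counts in each library, and all 8 were detected throughout. Over the libraries the immune sum ran from 103.7 to 398, the mesenchymal sum from 190.6 to 551.8 and the endothelial sum from 111.3 to 287.2. Col1a1 and Dcn, which define fibroblasts, were at 0 in 3 and 4 libraries, and the endothelial gene Cdh5 was at 0 in 15. Other genes of these lists were counted in every library, so RNA of such cells was not absent. Among them were mesenchymal Pdgfrb (76.7 to 535 normalized counts) and endothelial Pecam1 (4.94 to 95) and Vwf (13.8 to 138). A pair of libraries stood apart from their groups, by the chi-square of their counts per gene. CONV-WT replicate 3 had 177 and 135 against replicates 1 and 2, which had 22.7 between them, and GF-Ern2-/- replicate 2 had 178 and 122, where replicates 1 and 3 had 42.5. Normalized counts are counts divided by DESeq2 size factors over the 18 libraries. In bulk RNA, fewer cells of a type and less RNA per cell cannot be told apart.

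Per the GENCODE vM21 annotation of GRCm38 (mm10), the build that the submitters name, Enpep lies at chr3:129269175-129332720, Anpep at chr7:79821803-79861059, Dpp4 at chr2:62330073-62412231 and Mep1a at chr17:43474324-43502812, each on the minus strand. Mep1b, Ace (chr11:105967945-105989964) and Mme (chr3:63241537-63386030) lie on the plus strand. Exons of Dpp4 overlap the opposite-strand gene Gm13561 over 232 bases, and exons of Ace overlap Gm11651 over 295 bases. The libraries were stranded, but the strand setting of the counting is not given in the sources used here, so reads of these stretches may be shared. RefSeq promoter sequences (GRCm38.p6) were found for 6 of 7 members, and Mep1b was not matched. The stretches before the start sites of 4 genes are shown, those of Enpep and Mep1a, whose levels had the highest r of any pair of members, and those of Ace and Mme, called lower in all 4 comparisons with germ-free mice. Each reads 5′ to 3′ on the gene's strand, from 250 bases before the RefSeq start site, and those of Mep1a and Ace end earlier, where another annotated transcript begins. The RefSeq start of Mme lies within the longer GENCODE gene. Capitals mark motif matches.
Mep1a, chr17:43502813-43503023, minus strand: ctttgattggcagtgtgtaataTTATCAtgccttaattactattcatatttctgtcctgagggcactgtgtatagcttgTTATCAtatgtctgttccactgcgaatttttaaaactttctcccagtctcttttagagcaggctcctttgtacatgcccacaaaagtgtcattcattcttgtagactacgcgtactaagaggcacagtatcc
Enpep, chr3:129332750-129332999, minus strand: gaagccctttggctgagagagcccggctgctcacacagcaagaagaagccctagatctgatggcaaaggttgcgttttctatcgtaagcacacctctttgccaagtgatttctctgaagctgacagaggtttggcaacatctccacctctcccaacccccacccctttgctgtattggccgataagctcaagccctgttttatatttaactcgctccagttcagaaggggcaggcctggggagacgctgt
Ace, chr11:105967698-105967944, plus strand: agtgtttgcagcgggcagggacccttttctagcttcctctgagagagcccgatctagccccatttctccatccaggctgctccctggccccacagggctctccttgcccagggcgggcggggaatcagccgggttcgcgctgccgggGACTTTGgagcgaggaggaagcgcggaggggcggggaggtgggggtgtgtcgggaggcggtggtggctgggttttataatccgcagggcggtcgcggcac
Mme, chr3:63294961-63295210, plus strand: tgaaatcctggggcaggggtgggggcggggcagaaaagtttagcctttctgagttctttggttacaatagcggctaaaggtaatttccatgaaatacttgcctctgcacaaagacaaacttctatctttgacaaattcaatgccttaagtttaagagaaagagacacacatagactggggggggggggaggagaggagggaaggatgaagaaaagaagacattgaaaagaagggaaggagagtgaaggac
Motifs of 4 enterocyte factors were searched on both strands in the 250 bases before each start site. The GATA letters TGATAA matched Mep1a at 228 and 171 bases before the RefSeq start, as TTATCA on the gene's strand, and 7.94% of 32851 promoters held a match. The HNF4 letters CAAAGTC matched Ace at 103 bases before the start, as GACTTTG, with 3.84% of promoters matching. The CDX letters TTTATNG matched Dpp4 at 228 bases before the start (9.81% of promoters), and the HNF1 letters GTTAAT matched no member (6.43%).

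Levels differed widely between members. Per kilobase of coding sequence, the mean normalized count over 18 libraries was 3140 for Mep1a, 925 for Mep1b, 429 for Dpp4, 238 for Anpep, 188 for Enpep, 114 for Ace and 17.7 for Mme. Mep1a thus had the highest level per length and Mme the lowest. In group means, Ace was highest in GF-WT and the other 6 members in GF-Ern2-/-. Dpp4 was lowest in CONV-Ern2-/- and the other 6 members in CONV-WT. Of 35 pairs of neighbouring groups in the order of means, 31 overlapped in their libraries. Those that did not were GF-Ern2-/- above COLONIZED-WT for Ace, GF-WT above COLONIZED-WT for Mme, and CONV-Ern2-/- above COLONIZED-Ern2-/- for Mep1a and Mep1b.

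**Figure D1:**
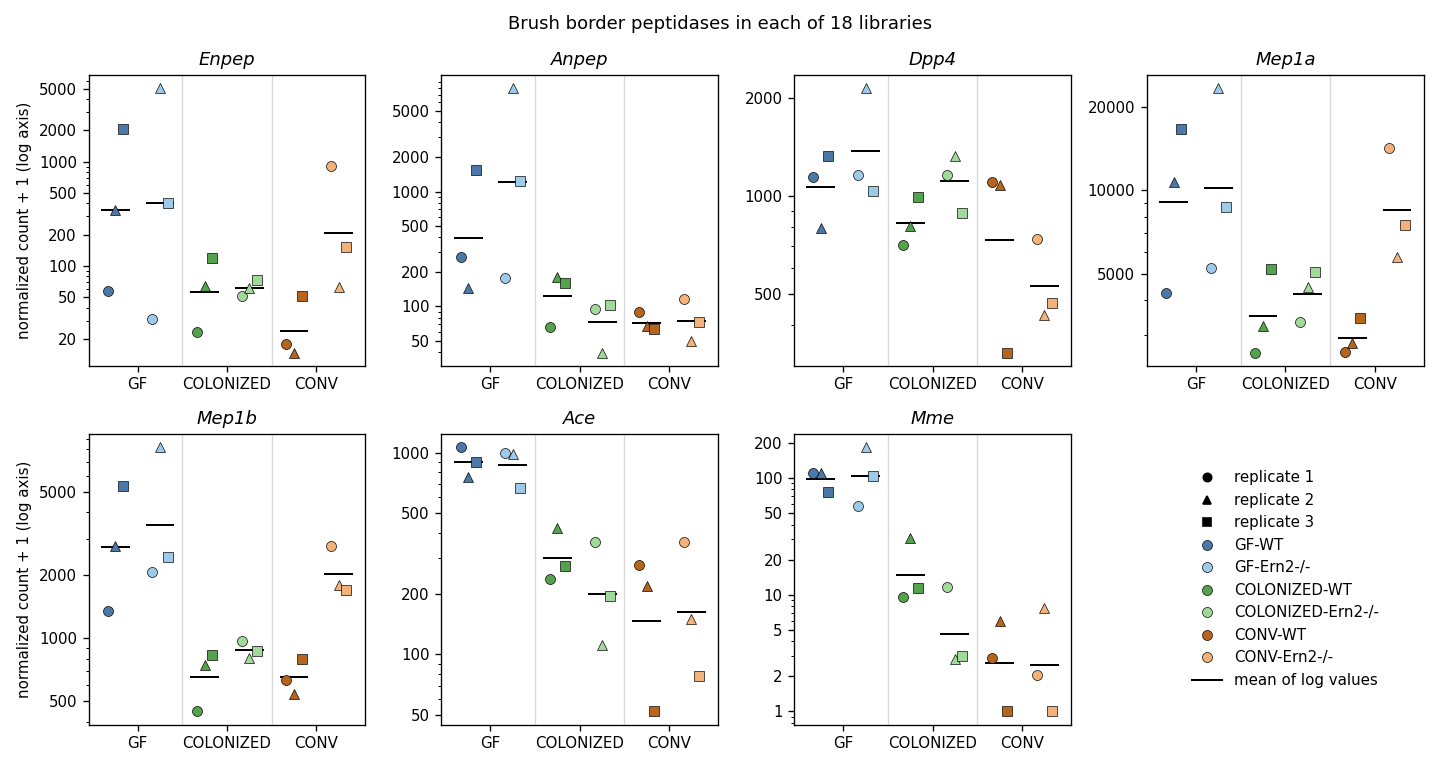
Normalized counts plus 1 (log axis) of the 7 members in each of 18 libraries, by microbial state and genotype label, with replicates 1, 2 and 3 as circle, triangle and square and a line at the mean of log values. All GF libraries lie above all other libraries for Ace and Mme, whereas Enpep and Anpep span more than 10-fold within GF-WT and within GF-Ern2-/-.

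The members differed in how much they varied within GF mice. Ace varied little between germ-free libraries. Ace had 1069, 755 and 894 normalized counts in GF-WT replicates 1, 2 and 3, and 997, 989 and 665 in GF-Ern2-/-. Mme had 111, 109 and 74.97 in GF-WT and 56.7, 185 and 104.2 in GF-Ern2-/-. The highest library exceeded the lowest by 1.42 times in GF-WT and 1.5 times in GF-Ern2-/- for Ace, and by 1.48 and 3.26 times for Mme.

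Enpep and Anpep varied most, and Mep1a and Mep1b shared their high libraries. Enpep had 56.9, 347 and 2060 normalized counts in GF-WT replicates 1, 2 and 3, and 29.8, 5100 and 402 in GF-Ern2-/-. Anpep had 268, 144 and 1540 in GF-WT and 178, 7974 and 1239 in GF-Ern2-/-. GF-Ern2-/- replicate 2 was the highest library for all 4 genes, and GF-WT replicate 3 was the second highest, so the spread ran in the same libraries. Mep1a had 4242, 10680 and 16630 in GF-WT and 5259, 23350 and 8675 in GF-Ern2-/-. Mep1b had 1359, 2765 and 5370 in GF-WT and 2072, 8231 and 2460 in GF-Ern2-/-. The highest library exceeded the lowest by 36.2 and 171 times for Enpep in GF-WT and GF-Ern2-/-, by 10.7 and 44.9 times for Anpep, by 3.92 and 4.44 times for Mep1a and by 3.95 and 3.97 times for Mep1b.

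Dpp4 had group means that differed by at most 2.66 times, the least of the 7 members. It had 1141, 797 and 1328 normalized counts in GF-WT and 1158, 2147 and 1037 in GF-Ern2-/-. The germ-free genotype groups overlapped for every member.

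To ask how the peptidases respond to a lifelong microbiota, CONV-WT was compared with GF-WT. Enpep, Anpep, Mep1a, Mep1b, Ace and Mme fell, whereas Dpp4 did not pass the test (log2 fold change −0.39, SE 0.48, adjusted p 0.631). DESeq2 thus called 6 of 7 members at an adjusted p under 0.01, all lower, where 5.28% of 13872 tested genes were called lower. The CONV-WT libraries also enter the contrast on which Enpep was selected, so its values here are no independent support. This holds in part for Mep1a and Mep1b, which followed Enpep within groups (r 0.96 and 0.92). Without Enpep the count is 5 of 6. For the same 6 members the CONV-WT libraries lay wholly below the GF-WT libraries, as they did for 18.1% of tested genes. The median log2 fold change of the members was −2.33, against 0 over all tested genes. Mme showed the deepest fall, from the values above to 1.89, 4.94 and 0 normalized counts (2, 5 and 0 reads) in CONV-WT replicates 1, 2 and 3. Its log2 fold change was −5.24 (SE 0.66, adjusted p 6.81e-13). Each CONV-WT library lay below each GF-WT library by more than 10-fold, at read numbers so low that the size of the fold is imprecise.

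Ace had 276, 216 and 51.1 normalized counts in CONV-WT, all below GF-WT, and a change of −2.33 (SE 0.54, adjusted p 0.000374). The lowest was replicate 3, the CONV-WT library with the smallest total. Without it Ace had −1.88 (adjusted p 2.37e-14), and 5 members were called, since Anpep had −3.08 (adjusted p 0.0409). Replicate 3 also had the least Epcam (8950, against 24600 and 21200 in replicates 1 and 2), Cdh1 (6650, against 22400 and 18500) and Muc2 (25200, against 223000 and 194000). Mep1b had 636, 543 and 800 (−2.27, SE 0.49, adjusted p 8.56e-05) and Mep1a had 2599, 2806 and 3455 (−1.84, SE 0.47, adjusted p 0.00144), again with no overlap with GF-WT. Enpep had 17.0, 13.8 and 51.1 in CONV-WT, so its highest library was close to the lowest of GF-WT at 56.9. Its change was −4.93 (SE 1.32, adjusted p 0.00255), and that of Anpep, with 88.6, 66.2 and 62.1, was −3.18 (SE 0.78, adjusted p 0.000784).

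Of 9 tested mesenchymal markers, 2 rose and 1 fell in the same comparison (5.68% and 5.28% of all tested genes). The smooth muscle genes Acta2 (4.08, SE 1.14, adjusted p 0.00411) and Des (4.77, SE 1.31, adjusted p 0.00343) rose, with 2.83, 16.8 and 67.6 and with 5.66, 4.94 and 69.4 normalized counts in CONV-WT replicates 1, 2 and 3, against at most 2.08 and 1.39 in GF-WT. Both were highest in replicate 3. Pdgfrb, which made up most of the mesenchymal sum in germ-free mice, fell by 1.35 (SE 0.36, adjusted p 0.0021). The part of mesenchymal cells in the results for the members was not tested.

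The choice of test mattered for these calls. The edgeR quasi-likelihood test called 0 members at an adjusted p under 0.01 (0.175% of genes), with 6 at an unadjusted p under 0.05 and an adjusted p of 0.0126 for Mme as its lowest. Without GF-WT replicate 3, the library high in Enpep, DESeq2 called 4 members. Enpep then stood at −2.92 (adjusted p 0.0147) and Mep1a at −1.34 (adjusted p 0.0341), while Mme (−5.41), Ace (−2.33), Mep1b (−1.65) and Anpep (−1.51) were still called. Over the 6 refits that each dropped 1 library, Enpep was called in 3 (adjusted p up to 0.0479), Mep1a in 2, Anpep in 5, and Mep1b, Ace and Mme in all 6. With the library total as a covariate, Mme was the 1 member called, and Ace had −1 (adjusted p 0.161). Each CONV-WT total lay below each GF-WT total, so that fit cannot separate depth from microbial state. With sex as a covariate Enpep (adjusted p 0.0313) and Mep1a (0.0117) were not called.

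COLONIZED-WT was compared with GF-WT to examine the response 14 days after microbes arrived. This comparison shares the GF-WT libraries with the preceding one. Mep1b, Ace and Mme fell (3 of 7 members, where 8.97% of 13635 tested genes were called lower), and edgeR called 1, Ace (4.94% of genes). Ace had 235, 420 and 275 normalized counts in COLONIZED-WT replicates 1, 2 and 3, below each germ-free library, with a change of −1.54 (SE 0.24, adjusted p 7.06e-09; edgeR 0.0078). Mme had 8.56, 29.4 and 10.3 (−2.59, SE 0.44, adjusted p 2.05e-07). Both calls held in all 6 refits without 1 library. With sex as a covariate, where GF-WT libraries were all female, Ace was the 1 member called, and Mme had −1.73 (adjusted p 0.0158). Their levels in COLONIZED-WT lay between those of GF-WT and CONV-WT in the mean.

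Mep1b had 448, 746 and 835 normalized counts in COLONIZED-WT (−2.22, SE 0.59, adjusted p 0.00164), and its call held in 2 of 6 refits without 1 library, with an adjusted p of up to 0.031. The remaining members were not called. Mep1a had 2596, 3233 and 5207 (−1.51, SE 0.58, adjusted p 0.0359), Enpep had 22.1, 63.2 and 118 (−3.60, SE 1.33, adjusted p 0.0281) and Anpep had 64.9, 179 and 158 (−2.28, SE 1.03, adjusted p 0.0818). All 3 overlapped with GF-WT replicates 1 or 2. Without GF-WT replicate 3, the change of Enpep was −1.56 and that of Anpep −0.61. Dpp4 had 707, 806 and 989 (−0.38, SE 0.22, adjusted p 0.186).

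Among libraries labelled Ern2-/-, each microbe-bearing group was set against GF-Ern2-/-. The CONV-Ern2-/- libraries enter the contrast that chose Enpep. In CONV-Ern2-/- mice Mme, Ace, Anpep and Dpp4 fell, which is 4 of 7 members where 2.77% of 13402 tested genes were called lower. The edgeR test called 0 (0.0325% of genes), with 4 at an unadjusted p under 0.05. Mme had 1.04, 6.67 and 0 normalized counts (1, 3 and 0 reads) in CONV-Ern2-/- replicates 1, 2 and 3, a change of −5.61 (SE 0.91, DESeq2 adjusted p 1.24e-07). Ace had 358, 149 and 77.3 (−2.17, SE 0.47, adjusted p 0.000205), and without GF-Ern2-/- replicate 1 its adjusted p was 0.0117. Both lay below every GF-Ern2-/- library. With the library total as a covariate Ace had −1.09 (adjusted p 0.0743), and Mme was still called. Of 9 tested mesenchymal markers 1 rose, the collagen gene Col3a1 (3.14, SE 0.86, adjusted p 0.00726), from 2.98 to 5.01 normalized counts in GF-Ern2-/- to 8.35, 42.2 and 49.7, and Pdgfrb fell by 1.37 (SE 0.31, adjusted p 0.000468), where 1.57% and 2.77% of all tested genes rose and fell.

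Anpep had 115, 48.9 and 71.7 normalized counts in CONV-Ern2-/- (−5.31, SE 1.30, adjusted p 0.00162), and Dpp4 had 737, 429 and 466 (−1.41, SE 0.35, adjusted p 0.00219). Each call held in 3 of 6 refits without 1 library. Without GF-Ern2-/- replicate 2, which had 7974 Anpep counts, Anpep had a change of −3.17 (adjusted p 0.021) and Dpp4 of −1.01 (adjusted p 0.0121), which left Mme and Ace as the 2 calls. Enpep, Mep1a and Mep1b were not called. Enpep had 912, 62.2 and 152 (−2.29, SE 1.76, adjusted p 0.522), Mep1a had 14200, 5723 and 7491 (−0.44, SE 0.50, adjusted p 0.707) and Mep1b had 2754, 1793 and 1700 (−1.03, SE 0.47, adjusted p 0.188). Without GF-Ern2-/- replicate 2 the direction of Enpep and Mep1a turned (0.79 and 0.38).

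For COLONIZED-Ern2-/- 5 of 7 members fell relative to GF-Ern2-/-, where 3.57% of 13943 tested genes were called lower. The edgeR test called 0 (0.216% of genes), with 6 at an unadjusted p under 0.05. Mme had 10.7, 1.80 and 2.01 normalized counts (15, 2 and 2 reads) in COLONIZED-Ern2-/- replicates 1, 2 and 3 (−4.51, SE 0.67, adjusted p 5.01e-09). Ace had 361, 110 and 194 (−2.0, SE 0.39, adjusted p 2.27e-05) and Mep1b had 976, 803 and 873 (−2.28, SE 0.45, adjusted p 2.85e-05). These 3 calls held in all 6 refits without 1 library, GF-Ern2-/- replicate 2 included. The change of Mep1b ran from −2.61 to −1.34 over those refits.

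Anpep and Mep1a were the other calls. Anpep had 94.7, 38.7 and 101 normalized counts in COLONIZED-Ern2-/- (−5.34, SE 1.31, adjusted p 0.00114) and its call held in 2 of 6 refits without 1 library. Mep1a had 3346, 4463 and 5065 (−1.54, SE 0.45, adjusted p 0.00964) and was called in 1 of 6. Without GF-Ern2-/- replicate 2 their adjusted p values were 0.0181 and 0.0535. Over the 6 refits the change ran from −5.89 to −3.16 for Anpep and from −1.91 to −0.69 for Mep1a. Enpep, with 50.6, 60.3 and 73.2, stood at −4.93 (SE 1.55, adjusted p 0.0174), and at −1.80 (adjusted p 0.296) without that library. Dpp4 had 1159, 1326 and 884 (−0.37, SE 0.32, adjusted p 0.502).

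**Figure D2:**
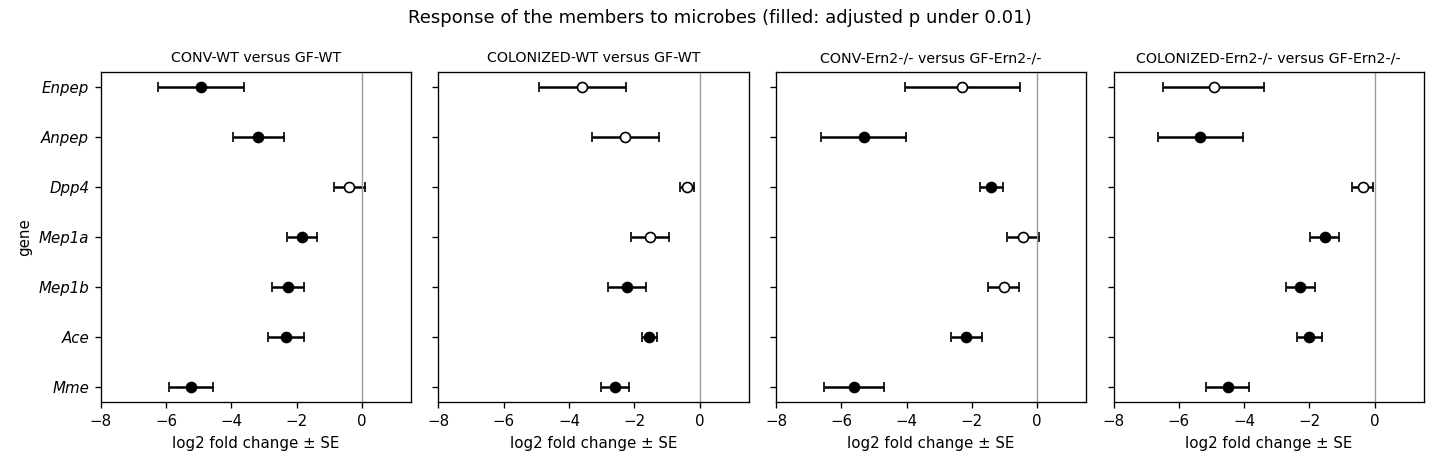
DESeq2 log2 fold changes (horizontal axis, bars are SE) of the 7 members in 4 comparisons of mice with microbes against germ-free mice of the same genotype label, with filled points for an adjusted p under 0.01. Ace and Mme are filled in all 4 panels, from −1.54 to −2.33 for Ace and from −2.59 to −5.61 for Mme, and the panels of a genotype label share their GF libraries.

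Ace and Mme were thus called in all 4 comparisons with germ-free mice by DESeq2, and Ace in 1 of 4 by edgeR. Over the 6 refits of each comparison Mme kept every call, and Ace all but the one without GF-Ern2-/- replicate 1. Whether the response differed between the genotype labels was tested as an interaction over GF and COLONIZED mice. DESeq2 called 0 of 7 members (1 at an unadjusted p under 0.05, 0 by edgeR in either sense; 0.028% of 17884 tested genes called). The difference in response was −0.45 (SE 0.51, adjusted p 0.998) for Ace, −1.90 (SE 0.87, adjusted p 0.845) for Mme and −0.05 (SE 0.91, adjusted p 0.998) for Mep1b. For Enpep it was −1.32 (SE 2.05, adjusted p 0.998), an error that leaves large differences undetectable with these libraries. The interaction over GF and CONV mice is given as a description, since its CONV libraries enter the contrast that chose Enpep. There the difference was 2.62 (SE 2.22) for Enpep, 1.39 (SE 0.79) for Mep1a, −2.15 (SE 1.63) for Anpep and −1.03 (SE 0.63) for Dpp4. No member was called in it.

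CONV and COLONIZED mice differ in how long microbes were present, and not in this alone. The study gives CONV-WT mice as cecal donors for colonization, and it reports a different, less diverse microbiota in CONV-Ern2-/- mice. Time with microbes and their composition therefore cannot be told apart between the groups labelled Ern2-/-. Between the WT groups, of which CONV-WT enters the contrast that chose Enpep, DESeq2 called 0 of 7 members (2 at an unadjusted p under 0.05, Anpep and Mme, against 1 by edgeR, which called 0; 0.119% of 13458 tested genes called by DESeq2 and 0% by edgeR). Mme was lower in each CONV-WT library than in each COLONIZED-WT library, as were 7.88% of genes (−2.7, SE 0.99, adjusted p 0.256), and the other 6 members overlapped.

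Between the groups labelled Ern2-/-, meprin transcripts were higher in each CONV library than in each COLONIZED library. These CONV-Ern2-/- libraries are also those of the contrast with which Enpep was chosen. Mep1a and Mep1b followed Enpep within groups (r 0.96 and 0.92), so the calls below are a description and no independent support. DESeq2 called Mep1a and Mep1b higher and Dpp4 lower, which is 2 and 1 of 6 tested members, where 4.86% and 3.73% of 13098 tested genes were called higher and lower. The edgeR test called 0 (0.282% of genes), with 4 at an unadjusted p under 0.05. Mep1b rose by 1.24 (SE 0.23, adjusted p 6.40e-06), from 803 to 976 in COLONIZED-Ern2-/- to 1700 to 2754 in CONV-Ern2-/-, and its call held in all 6 refits without 1 library. Mep1a rose by 1.1 (SE 0.32, adjusted p 0.00807) and was called in 1 of 6 such fits, with 0.0936 as the highest adjusted p. Dpp4 fell by 1.03 (SE 0.27, adjusted p 0.00214) and was called in 2 of 6. Enpep had a change of 2.62 (SE 1.04, adjusted p 0.0634), which was 0.80 without CONV-Ern2-/- replicate 1, its highest library at 912. A single fit of all 18 libraries called none of the members, with adjusted p values of 0.0701 for Mep1b, 0.13 for Mep1a and 0.0605 for Dpp4. Anpep (0.03, SE 0.46, adjusted p 0.971) and Ace (−0.17, SE 0.52, adjusted p 0.866) overlapped between the groups, and Mme was left untested for its low count. In the same comparison the mesenchymal markers Col3a1 (3.43, SE 0.98, DESeq2 adjusted p 0.00614) and Myh11 (3.78, SE 1.09, adjusted p 0.00722) rose. So did the endothelial and pericyte markers Pecam1 (2.83, SE 0.53, adjusted p 7.33e-06) and Cspg4 (1.72, SE 0.44, adjusted p 0.00196). No other marker of these lists was called. The part of such cells in the results for the members was not tested.

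Genotype labels were compared within each microbial state. In GF mice DESeq2 called 0 of 7 members (0 at an unadjusted p under 0.05, likewise by edgeR; 0.035% of 17167 tested genes called). Ace had a difference of −0.03 (SE 0.25) and Mme of 0.24 (SE 0.44) between GF-Ern2-/- and GF-WT, whereas Anpep had 2.28 (SE 1.5) and Enpep 1.18 (SE 1.85). Adjusted p values were 1 for all 7. In COLONIZED mice 0 of 6 tested members were called (2 at an unadjusted p under 0.05, Dpp4 and the untested Mme, and 1 by edgeR, which called 0; 1.37% of 11960 tested genes called by DESeq2 and 0.00786% by edgeR). Dpp4 had a difference of 0.43 (SE 0.19, adjusted p 0.157), Anpep of −0.78 (SE 0.41, adjusted p 0.244) and Mep1b of 0.38 (SE 0.22, adjusted p 0.285), and all 7 overlapped.

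CONV-Ern2-/- against CONV-WT is the contrast that led to the choice of Enpep, and its values are a description. All 3 CONV-Ern2-/- libraries exceeded all 3 CONV-WT libraries for Enpep, Mep1a and Mep1b, and so they did for 9.75% of tested genes. Every surface colonocyte marker of the list described below, except Car1, was likewise higher without overlap. Slc26a3 had 10330 to 19010 normalized counts in CONV-Ern2-/- and 2180 to 3800 in CONV-WT. Emp1 had 15470 to 25460 in CONV-Ern2-/- and 3521 to 5210 in CONV-WT. DESeq2 called 3.03% of 12625 tested genes here, from which nothing is read about the members. The log2 difference was 3.81 (SE 0.91) for Enpep, 1.63 (SE 0.38) for Mep1a and 1.66 (SE 0.30) for Mep1b. Anpep (0.14, SE 0.43), Ace (0.12, SE 0.70) and Dpp4 (−0.62, SE 0.49) overlapped, and Mme had 7 and 4 reads in all in the WT and Ern2-/- groups. The difference of Enpep rested largely on replicate 1, at 912 normalized counts. The replicate with the least Enpep in CONV-Ern2-/-, at 62.2, exceeded the highest CONV-WT library, at 51.1, by little.

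Markers of other epithelial cells moved with some members. The summed level of 10 small-intestine enterocyte markers, most of it from Fabp2, Slc5a1 and Apob, was 64920 normalized counts in GF-Ern2-/- replicate 2, 24880 in GF-WT replicate 3 and 20220 to 23150 in CONV-Ern2-/-. It was 6769 to 17310 in the other 13 libraries. GF-Ern2-/- replicate 2 and GF-WT replicate 3 were also the libraries highest in Enpep, Anpep, Mep1a and Mep1b. Apoa1, an apolipoprotein of small-intestine enterocytes, had 6626 and 817 in GF-Ern2-/- replicates 2 and 3 and 414 in GF-WT replicate 3, the 3 libraries with over 1000 Anpep counts. Apoa4, another such marker, had 0 counts in 12 of 18 libraries and 207 and 249 in GF-Ern2-/- replicates 2 and 3, and Fabp6, a marker of the ileum, had 3299 in GF-Ern2-/- replicate 2. Over the 18 libraries, log2 values of the marker sum had a Pearson r of 0.87 with Enpep, 0.91 with Mep1a, 0.90 with Mep1b and 0.65 with Anpep, against 0.22 with Ace, 0.26 with Mme and 0.11 with Dpp4. Enpep also had an r of 0.86 with the summed genes of microvillus structure and 0.81 with other surface peptidases, both lists described below. With the goblet sum it had −0.34. A high r with Enpep was thus not particular to the small-intestine list. That list holds Apob, the gene most like Mep1a (r 0.99). The points share library and depth and are no independent test. Against GF mice of the same label, Apoa1 was called lower in CONV-WT (−7.15), COLONIZED-WT (−7.61), CONV-Ern2-/- (−9.33) and COLONIZED-Ern2-/- (−10.07). Sis was also called lower in each, as were Ace and Mme. Apob fell in CONV-WT, Rbp2 in both COLONIZED groups, and Slc5a1 in these and in CONV-Ern2-/-. No marker of the list was called higher, where 5.28%, 8.97%, 2.77% and 3.57% of all tested genes were lower in that order.

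Of 9 surface colonocyte markers, 5 fell and 0 rose in CONV-WT against GF-WT, with a median of −1.90 (5.28% of all tested genes lower). They were Car4 (−3.11, SE 0.52, DESeq2 adjusted p 1.9e-07), Slc20a1 (−2.53, SE 0.46, adjusted p 1.72e-06), Ceacam20 (−2.38, SE 0.33, adjusted p 5.32e-11), Slc26a3 (−1.90, SE 0.49, adjusted p 0.00181) and Mall (−1.1, SE 0.29, adjusted p 0.00208). Against GF mice 2 fell in COLONIZED-WT (8.97% of all tested genes lower), 5 in COLONIZED-Ern2-/- (3.57%) and 0 of 8 tested in CONV-Ern2-/- (2.77%). Between CONV-Ern2-/- and COLONIZED-Ern2-/- 8 of 9 rose, where 4.86% of all tested genes rose. Car1, the most abundant of them, went the other way in CONV-WT against GF-WT in the mean (115100 against 62250 normalized counts, not called) and weighs heavily in their sum. The sum ran from 35800 to 464700 over all libraries, with 325200 to 440900 in CONV-Ern2-/- and 101700 to 179500 in COLONIZED-Ern2-/-.

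Of 9 tested stem and proliferation genes, 2 rose in CONV-WT (5.68% of all tested genes higher), 5 in COLONIZED-WT (9.35%), 4 in COLONIZED-Ern2-/- (3.6%) and 0 in CONV-Ern2-/- (1.57%) against GF mice, and 0 fell. The helicase gene Mcm2 rose by 1.26 (SE 0.19, adjusted p 1.92e-09) in COLONIZED-WT. Of 10 tested in CONV-Ern2-/- against COLONIZED-Ern2-/-, 2 fell and 0 rose (3.73% of all tested genes lower). The sum of the 10 ran from 6617 to 10670 normalized counts in GF-WT, 14660 to 16340 in COLONIZED-WT, 9151 to 17910 in CONV-WT, 7066 to 10430 in GF-Ern2-/-, 15600 to 18750 in COLONIZED-Ern2-/- and 8656 to 13060 in CONV-Ern2-/-.

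Of 10 goblet cell genes, 3 rose and 2 fell in CONV-WT, 5 rose and 2 fell in COLONIZED-WT, 3 rose and 1 fell in COLONIZED-Ern2-/-, and 0 rose and 4 fell in CONV-Ern2-/-, each against GF mice. The shares of all tested genes higher and lower were 5.68% and 5.28%, 9.35% and 8.97%, 3.6% and 3.57%, and 1.57% and 2.77% in that order. Between CONV-Ern2-/- and COLONIZED-Ern2-/- 6 fell and 0 rose (3.73% of all tested genes lower). Spink4 rose by 3.42 (SE 0.51, adjusted p 2.69e-09) and Zg16 fell by 3.6 (SE 0.45, adjusted p 6.57e-13) in CONV-WT. The goblet sum ran from 176800 to 251300 in GF-WT, 257300 to 335600 in COLONIZED-WT, 75200 to 455000 in CONV-WT, 85610 to 191500 in GF-Ern2-/-, 143600 to 274300 in COLONIZED-Ern2-/- and 63920 to 73450 in CONV-Ern2-/-. Of the endothelial and pericyte markers, Cspg4 fell in COLONIZED-WT (−1.82, SE 0.48, adjusted p 0.00129) against GF mice. In COLONIZED-Ern2-/- against GF mice Pecam1 fell (−2.24, SE 0.53, adjusted p 0.000716) and Notch3 rose (2.72, SE 0.69, adjusted p 0.00169). There the mesenchymal marker Pdgfrb fell too (−1.03, SE 0.28, adjusted p 0.00398). No endothelial or pericyte marker was called in the CONV groups against GF mice. The part of small-intestine enterocytes, surface colonocytes and proliferating, goblet, endothelial and mesenchymal cells in the results for the 7 members was not tested.

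**Figure D3:**
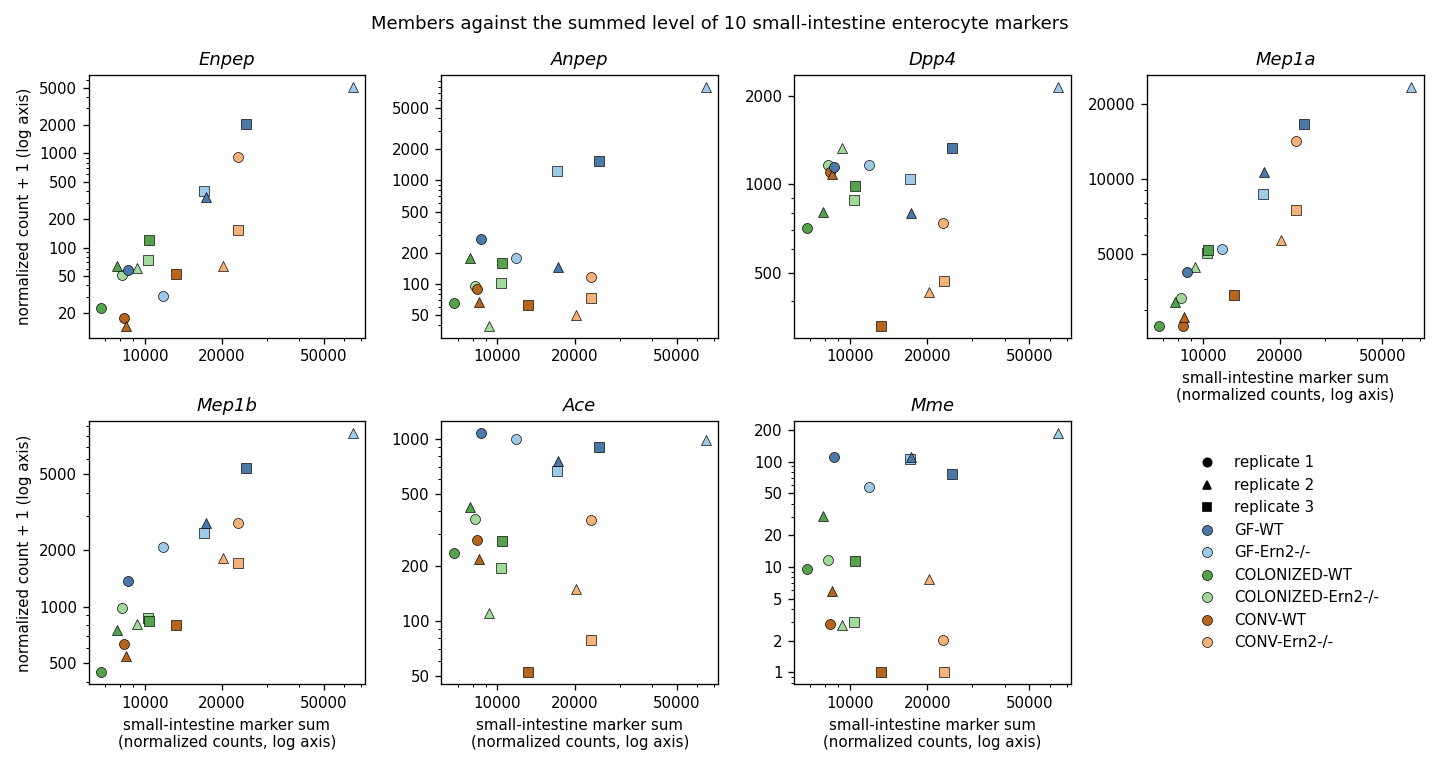
Normalized counts plus 1 of each member (vertical log axis) against the summed normalized counts of 10 small-intestine enterocyte markers (horizontal log axis) in 18 libraries, 1 point each. Enpep, Mep1a and Mep1b climb with the sum (r from 0.87 to 0.91), whereas for Ace and Mme (r 0.22 and 0.26) all GF libraries lie above the others.

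How closely the members followed each other was described over the same 18 libraries. The closest pair was Enpep and Mep1a, with a Pearson r of log2 values of 0.96, which was also 0.96 after group means had been removed. Mep1a and Mep1b, which encode subunits of 1 enzyme family, had an r of 0.95 (0.91 within groups). Ace and Mme had an r of 0.90, and 0.60 within groups. Mep1a had 0.44 with Ace, which was 0 within groups. Anpep had similar values with members of either pair, 0.71 with Mep1a, 0.78 with Enpep, 0.70 with Ace and 0.74 with Mme, and within groups 0.74, 0.84, 0.22 and 0.25. Dpp4 had 0.69 with Ace and 0.28 with Mep1a.

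**Figure D4:**
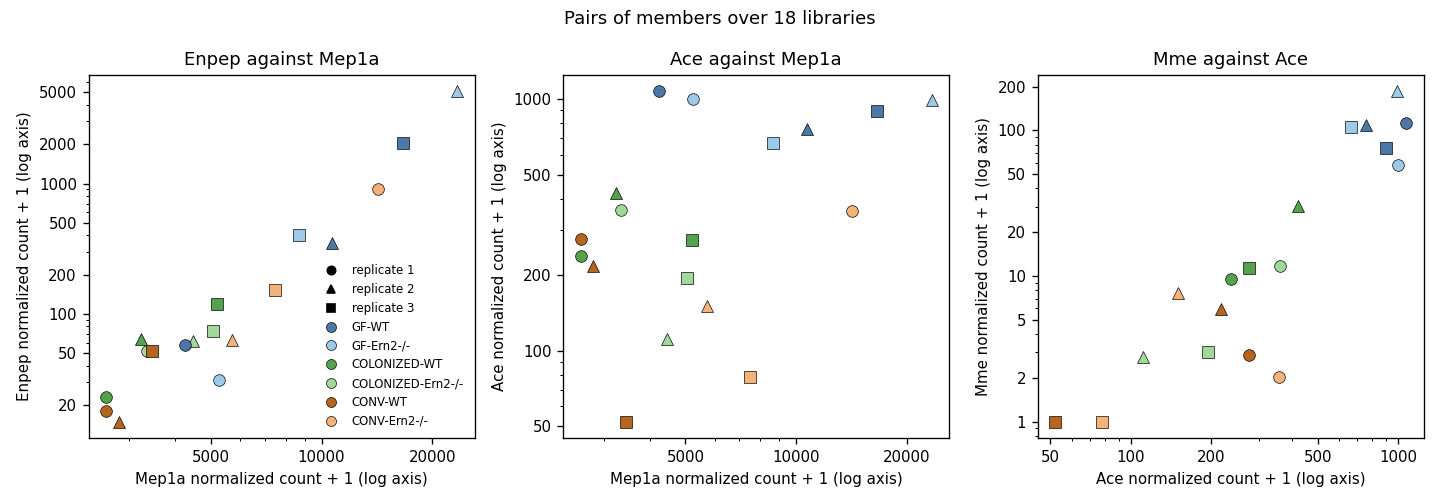
Pairs of members as normalized counts plus 1 on log axes, with 18 libraries as points coloured by group and shaped by replicate. Enpep rises with Mep1a across all groups (r 0.96) and Mme with Ace (r 0.90), while Ace against Mep1a (r 0.44) separates GF libraries from the rest along Ace.

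Among 10852 genes with a mean of at least 50 normalized counts, the 3 most like each member were taken over the 18 libraries. Enpep was followed by Mep1a (r 0.96), Ephx2 (0.95), an epoxide hydrolase, and Cyp2d26 (0.95), a cytochrome P450. Mep1a was followed by Apob (0.99), the structural protein of chylomicrons, Abcg2 (0.97), an apical efflux pump, and Cyp2d26 (0.97). Those of Mep1b were Neurl3 (0.98), Cyp3a13 (0.97) and Gcnt2 (0.97). Anpep came closest to genes of lipid uptake and export, Apoa1 (0.93), Mttp (0.89) and Npc1l1 (0.88), although Spearman's rho with Apoa1 was 0.58. Ace was followed by Ctns (0.96), a lysosomal cystine transporter, Atp8a2 (0.96) and Pi4ka (0.96). For Mme they were Ckmt2 (0.93), Tgm3 (0.93) and Sun2 (0.92), and for Dpp4 Ccdc132 (0.94), Alg11 (0.93) and Copb1 (0.93).

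Other surface peptidases were also examined. Naaladl1, an aminopeptidase-like gene of the ileum, fell in CONV-WT against GF-WT (−3.35, SE 0.57, DESeq2 adjusted p 2.71e-07). Xpnpep2, Dpep1, Lnpep, Prss8, St14 and Fap were not called there, nor was Ggt1, which had 0.91 (SE 1.08, adjusted p 0.619). Of all tested genes, 5.28% were called lower there. The shares were 8.97%, 3.57% and 2.77% in the comparisons that follow, in their order. In COLONIZED-WT against GF-WT, Dpep1, a membrane dipeptidase, fell by 1.28 (SE 0.34, adjusted p 0.00133) and Lnpep by 0.67 (SE 0.19, adjusted p 0.00421). Dpep1 fell in COLONIZED-Ern2-/- against GF-Ern2-/- as well (−1.07, SE 0.18, adjusted p 1.6e-07), and Prss8 fell in CONV-Ern2-/- (−1.06, SE 0.23, adjusted p 0.000302).

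Transporters that take up the products of these enzymes formed a list of 11 genes, 10 of them in the table and 9 tested. The list lost 6 genes in CONV-WT, 6 in COLONIZED-WT, 6 in CONV-Ern2-/- and 5 in COLONIZED-Ern2-/- against GF mice of the same label, where 5.28%, 8.97%, 2.77% and 3.57% of all tested genes were called lower, with 0 higher and list medians of −2.44, −2.17, −2.27 and −1.34. Slc15a1, the peptide transporter PEPT1, had 900 to 2292 normalized counts in GF-WT and 30.2 to 54.3 in CONV-WT (−5.19, SE 0.43, DESeq2 adjusted p 2.46e-30). Slc6a19, a transporter of neutral amino acids, fell by 6.39 (SE 1.1, adjusted p 4.87e-07). Slc7a9, a part of the cystine and basic amino acid carrier, fell by 4.5 (adjusted p 3.35e-12). In COLONIZED-Ern2-/- Slc15a1 fell by 5.02 (SE 0.30, adjusted p 1.25e-57).

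Intracellular peptidases finish the breakdown inside the cell. Of 11 tested genes, 0 were called in CONV-WT, CONV-Ern2-/- and COLONIZED-Ern2-/- against GF, and 1 was called lower in COLONIZED-WT, Cndp2 (−0.91, adjusted p 0.00406), where 8.97% of all tested genes were lower. In the other 3 comparisons, in the order given, 5.28%, 2.77% and 3.57% of all tested genes were lower. List medians ran from 0.03 to 0.11. Of the angiotensin and kinin genes, with 4 or 5 of 12 tested, 1 rose in COLONIZED-WT, Agt (0.70, adjusted p 0.000383), the precursor of the angiotensins, where 9.35% of all tested genes rose, and 0 were called in the other 3 comparisons.

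Of 15 genes that build the microvilli, 4 fell and 1 rose in CONV-WT against GF-WT (median −0.27 against 0 over all tested genes), among them the protocadherins Cdhr2 (−1.66, adjusted p 0.000152) and Cdhr5 (−1.61, adjusted p 1.39e-05) and the motor Myo1a (−1.06, adjusted p 0.00153). In COLONIZED-WT 5 fell and 1 rose, in COLONIZED-Ern2-/- 1 fell, Myo1a (−1.1, adjusted p 2.17e-08), and in CONV-Ern2-/- 0 were called (shares of all tested genes as for the transporters). Between CONV-Ern2-/- and COLONIZED-Ern2-/- 7 rose and 0 fell, where 4.86% of all tested genes rose, including Mpp1 (2.51, adjusted p 9.47e-21), Espn (2.14, adjusted p 4.28e-13) and the NHERF1 gene Slc9a3r1 (1.48, adjusted p 1.19e-17). Vil1, the actin bundler villin, rose by 0.64 (adjusted p 5.33e-05). Of 7 saccharidases and alkaline phosphatases, 4 were tested in each WT comparison with GF mice and 3 in each Ern2-/- comparison. Sis, encoding sucrase-isomaltase, was the 1 gene called, lower in all 4 comparisons (−4.81 in CONV-WT, SE 0.79, adjusted p 1.25e-07).

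Of 13 enterocyte transcription factors, against the same shares of all tested genes, Creb3l3 alone fell in CONV-WT (−3.18, adjusted p 0.00825), Gata4 (−2.63, adjusted p 0.000939) and Klf4 (−0.80, adjusted p 0.000364) fell in COLONIZED-WT, and 0 were called in the groups labelled Ern2-/- against GF. Hnf4a ranged from 13120 to 25360 normalized counts over all libraries and was called only between CONV-Ern2-/- and COLONIZED-Ern2-/- among the 8 tested pairs of groups (0.52, SE 0.13, adjusted p 0.00173). Creb3l3 (2.21), Maf (1.39) and Prdm1 (2.87) rose in that comparison too. The study took an enterocyte signature of 475 genes from single-cell work. Of its 460 tested genes, 114 were lower and 5 higher in CONV-WT against GF-WT, with a median of −0.54. Of all tested genes, 5.28% were lower. The 7 peptidases had a median of −2.33, but they were built around Enpep, which was selected with these CONV-WT libraries. The medians are therefore a description and no test of a difference.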

How the data were processed

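RNA-Seq libraries of colon crypt epithelium (6 groups of 3) were analysed from 1 table of gene counts for 18 samples, and 0 columns belonged to no sample. Per the labels and methods, the authors prepared stranded mRNA libraries, aligned reads to mm10 with STAR and deposited raw counts per gene symbol. The versions, annotation and strand setting are not given in the sources used here. The study's test, DESeq2 (1.42.0, R 4.3.3) with adjusted p under 0.01, was fitted to each pair of groups on its own 6 libraries and over all genes, without shrinkage of fold changes. Interactions of genotype with colonization and with conventional raising were each fitted on 12 libraries. Genes that DESeq2 filtered for low counts were left untested. edgeR (4.0.16) was the alternative test, and further alternatives changed the size factors, count filter, covariates and libraries. Both tools were checked on simulated counts. In a simulation of COLONIZED-WT against GF-WT with 200 of 13454 genes changed, DESeq2 recovered 77.5% with 19 false calls among 174, and edgeR 58.5% with 1 among 118. Levels per kilobase used GENCODE coding lengths. Correlations used log2 of the normalized count plus 1. The members and the companion lists were chosen with earlier results of these data known. The text names all members, the 3 genes most like each, and of each list up to 3 called genes with the largest change in a comparison, with a few genes whose function bears on the members. One result of a companion list is not reported here.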

Additional observations from a re-analysis of the deposited data

How the results depend on the processing

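Calls of members depended on the test, and the cause was not tested. CONV-Ern2-/- versus CONV-WT led to the choice of Enpep, so its counts here, beside 3.03% of all tested genes called, are a description and say nothing of stability. With edgeR, 0 members were called for CONV-Ern2-/- versus CONV-WT, CONV-WT versus GF-WT, CONV-Ern2-/- versus GF-Ern2-/-, COLONIZED-Ern2-/- versus GF-Ern2-/- and CONV-Ern2-/- versus COLONIZED-Ern2-/-, and 1 for COLONIZED-WT versus GF-WT. One fit of all 18 libraries called 0 for CONV-Ern2-/- versus CONV-WT and for CONV-Ern2-/- versus COLONIZED-Ern2-/-. With sex as a covariate 0 were called for CONV-Ern2-/- versus CONV-WT and 1 for COLONIZED-WT versus GF-WT. With the library total as a covariate 1 each was called for CONV-WT versus GF-WT, CONV-WT versus COLONIZED-WT and CONV-Ern2-/- versus GF-Ern2-/-. Each CONV-WT total lay below each GF-WT and each COLONIZED-WT total, so depth and microbial state cannot be separated between those WT groups.

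Replicate numbers were not taken to pair the samples, since the labels name no pairing. Deviations of same-numbered libraries had an r over 0.1 in 15 of 27 pairs and in all pairs of 0 of 9 comparisons. These r ran from −0.28 to 0.63, and with so few libraries they cannot exclude a pairing. With the replicate number as a block, 5 members were called for COLONIZED-WT versus GF-WT and the other counts stayed within 1.5 times. The block turned the log2 fold change of Enpep to −0.18 in GF and to 0.1 in COLONIZED genotype comparisons, and that of Mep1b to 0.11 in the genotype by colonization interaction.

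Uncalled values that changed sign were as follows. For CONV-Ern2-/- versus CONV-WT they were Mme (−0.1, 1 fit of all libraries), Anpep (−0.15) and Ace (−0.49) with sex, and Dpp4 (0.01) with the total. For GF-Ern2-/- versus GF-WT they were Enpep (−1.02), Dpp4 (−0.06), Mep1a (−0.27) and Mep1b (−0.35) with sex, and Ace (0.14) and Mme (−0.17) with the total. The total also turned Mep1a for COLONIZED-Ern2-/- versus COLONIZED-WT (−0.14), Dpp4 for CONV-WT versus GF-WT (0.79), Ace for CONV-WT versus COLONIZED-WT (0.57), Mep1a for CONV-Ern2-/- versus GF-Ern2-/- (0.14), Ace for CONV-Ern2-/- versus COLONIZED-Ern2-/- (1.05) and Dpp4 for genotype by colonization (−0.03), where sex turned Mep1a (0.14) and Mep1b (0.15).

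Without 1 library, members called ranged from 1 to 4 for CONV-Ern2-/- versus CONV-WT, 4 to 6 for CONV-WT versus GF-WT, 2 to 5 for COLONIZED-WT versus GF-WT, 2 to 4 for CONV-Ern2-/- versus GF-Ern2-/-, 3 to 6 for COLONIZED-Ern2-/- versus GF-Ern2-/- and 1 to 3 for CONV-Ern2-/- versus COLONIZED-Ern2-/-, and were 0 in the rest. Signs of these log2 fold changes also changed between such refits, given by lowest and highest value. In CONV-Ern2-/- versus COLONIZED-Ern2-/-, sign changes came with Ace (−0.96 to 0.39), Anpep (−0.38 to 0.28) and Mme (−2.65 to 0.41). In CONV-Ern2-/- versus CONV-WT, sign changes came with Ace (−0.70 to 0.56), Anpep (−0.30 to 0.39) and Mme (−1.60 to 1.29). In GF-Ern2-/- versus GF-WT, sign changes came with Ace (−0.15 to 0.14), Enpep (−1.94 to 3.21), Mep1a (−0.61 to 0.75), Mep1b (−0.50 to 1.06) and Mme (−0.30 to 0.58). In genotype by conventional raising, sign changes came with Ace (−0.65 to 0.59) and Mme (−1.93 to 0.73). In COLONIZED-Ern2-/- versus GF-Ern2-/-, sign changes came with Dpp4 (−0.57 to 0.05). In genotype by colonization, sign changes came with Dpp4 (−0.18 to 0.43), Enpep (−3.36 to 1.80), Mep1a (−0.53 to 0.83) and Mep1b (−0.68 to 0.88). In COLONIZED-Ern2-/- versus COLONIZED-WT, sign changes came with Enpep (−0.57 to 0.52). In CONV-Ern2-/- versus GF-Ern2-/-, sign changes came with Enpep (−4.11 to 0.79) and Mep1a (−0.91 to 0.38). In CONV-WT versus COLONIZED-WT, sign changes came with Dpp4 (−0.25 to 0.38), Mep1a (−0.52 to 0.01) and Mep1b (−0.27 to 0.14). Low counts limit Mme most, at 0 to 5 reads in the CONV groups.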
